A study of Mus musculus with 8 samples.

Results

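MCT-1 and DENR are the partners of a dimer that acts on ribosomes after they have stopped translating, and the mRNAs of this dimer and its relatives were followed here through MCT-1 silencing and blockade of the IL-6 receptor. The rule that picks the 4 genes lists them by name and uses no measured value, although it was set with earlier results of these data known. They are Mcts1, which encodes MCT-1, its retrogene copy Mcts2, its partner Denr, and Eif2d, which encodes a single protein related to both partners. All 4 were found among the 54532 genes of the count files, and all 4 passed the filter of more than 1 CPM (counts scaled to a common library total) in at least 2 libraries that left 12704 genes for testing. The cells were 4T1, a mouse mammary tumor line of BALB/c origin that serves as a model of triple-negative breast cancer. Either of 2 hairpins had been stably transfected, one against mouse MCT-1 (shMCT-1) and one with a scramble sequence. The cells were kept in medium with puromycin at 6 µg/ml and received anti-mouse IL-6R at 100 ng/ml or IgG for 48 h. Poly(A) RNA was sequenced in 8 libraries, 2 for every combination of hairpin and antibody, and a group is named by both (scramble + IgG, for example). Puromycin selection was shared by all groups, and 1 hairpin stood for the silencing. The sources used here do not say whether each line was a clone or a pool, so the hairpin and the history of the line that carried it cannot be told apart.

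When a ribosome ends translation of a short upstream reading frame, its small subunit can stay on the mRNA, lose the spent tRNA and start again at a later start codon. The MCT-1 and DENR dimer is known for removing that tRNA and for promoting this reinitiation, and eIF2D can carry out related steps by itself. MCT-1 was first described as an oncogene of lymphoid cells and has been studied in breast tumors, whereas Mcts2 is known as an intronless copy that is expressed from the paternal allele in the mouse. Sequencing of mRNA measures how much transcript is present. Neither translation nor protein was measured in these libraries, and in bulk RNA fewer cells with a transcript and less transcript per cell cannot be told apart.

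The hairpin addressed only 1 of the 4 genes exactly, and the sequences show how close its retrogene copy came. The 21-base target was searched in 141767 mouse transcripts (GENCODE release M21, GRCm38). Matches on 1 autosome that carries none of the 4 genes were dropped, while those on other such autosomes were kept. No reason for this choice was recorded, and any match on the autosome left out is missing here. Among the matches kept, it met Mcts1 alone without mismatch, on the sense strand, in 3 of its 5 annotated transcripts. The site lay at chrX:38602593-38602613 on the plus strand. It was in exon 3 and inside the coding sequence of 1 of these 3 transcripts, and the other 2 carry no annotated coding sequence and hold it in exon 3 and exon 2. A processed pseudogene, Gm12837 (chr4:115416418-115416438, minus strand), differed from it at 1 base, C3T counted from the 5′ end of the target, and was listed at 0 counts in all 8 libraries. Mcts2 differed at 2 bases, A11C and T14C, in the coding sequence of its only exon (chr2:152687452-152687472, plus strand). The 3 sites are shown 5′ to 3′ because they separate the intended target from the nearest matches kept, with differences from Mcts1 in capitals.
Mcts1: tccttacagtaaatggagaat
Gm12837: tcTttacagtaaatggagaat
Mcts2: tccttacagtCaaCggagaat

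The longer stretch of 61 coding bases around the site shows that both genes stay nearly the same on either side. In the first line below capitals mark the hairpin target, at coding bases 182 to 202 of Mcts1, and in the second line capitals mark the 6 bases at which Mcts2 differs.
Mcts1: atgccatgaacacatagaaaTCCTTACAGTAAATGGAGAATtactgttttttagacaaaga
Mcts2: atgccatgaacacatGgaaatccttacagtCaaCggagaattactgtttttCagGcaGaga

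Over the whole coding sequence, 543 bases in both genes, Mcts1 and Mcts2 differed at 81 positions without any gap (85.1% identical), and the longest identical run was 29 bases. Their predicted proteins, 181 residues each, shared 170 residues (93.9%). Eif2d and Mcts1 were far apart by comparison, since their best local protein alignment of 179 residues held 26.3% identical ones. No stretch of 100 bases, the length of 1 read, occurred both in a transcript of Mcts1, Mcts2, Denr or Eif2d and in a transcript of another gene. All 32 values of the 4 genes were whole counts, whereas 29.6% of the values above 0 in the files were fractions, the mark that RSEM leaves where it divides reads between genes.

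Mcts1, the gene the hairpin was made against, was lower in every silenced library. It stood at 15.4 and 11.8 CPM in scramble + IgG, 12.8 and 13.5 CPM in scramble + anti-IL-6R, 6.32 and 6.18 CPM in shMCT-1 + IgG, and 6.70 and 4.92 CPM in shMCT-1 + anti-IL-6R. The 4 scramble libraries averaged 13.4 ± 1.49 CPM (SD, n = 4) and the 4 shMCT-1 libraries 6.03 ± 0.774 CPM (SD, n = 4), so that 45.1% of the transcript remained, and the sets did not overlap. The lowest of the counts behind these levels was 108. Across both treatments edgeR's quasi-likelihood test gave a log2 fold change of -1.10 (SE 0.12, adjusted p = 1.13e-05). Within IgG it was -1.08 (SE 0.17, adjusted p = 0.000676) and within anti-IL-6R -1.13 (SE 0.17, adjusted p = 0.000557), in edgeR's fit of the 4 group means.

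Mcts2, the copy with 2 mismatches to the hairpin, was lower to a similar degree. Its levels were 29.7 and 26.3 CPM in scramble + IgG, 26.8 and 26.6 CPM in scramble + anti-IL-6R, 11.4 and 12.8 CPM in shMCT-1 + IgG, and 11.3 and 12.3 CPM in shMCT-1 + anti-IL-6R. All shMCT-1 libraries lay below all scramble libraries, with 43.8% of the mean remaining. The log2 fold change in edgeR was -1.14 across both treatments (SE 0.07, adjusted p = 3.11e-07), -1.16 within IgG (SE 0.11, adjusted p = 3.38e-05) and -1.12 within anti-IL-6R (SE 0.11, adjusted p = 3.84e-05). The 95% intervals across both treatments, from -1.36 to -0.85 for Mcts1 and from -1.30 to -0.98 for Mcts2, covered each other's estimates.

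Denr, which encodes the partner that MCT-1 binds, moved the other way. It was measured at 95.6 and 120.2 CPM in scramble + IgG, 91.5 and 96.3 CPM in scramble + anti-IL-6R, 173.4 and 179.8 CPM in shMCT-1 + IgG, and 190.7 and 173.1 CPM in shMCT-1 + anti-IL-6R. Replicate 2 of scramble + IgG was the highest of the scramble libraries and still lay below every shMCT-1 library. Denr rose 1.84-fold in the edgeR fit across both treatments, a log2 fold change of 0.88 (SE 0.09, adjusted p = 7.6e-06). It was higher by 0.75 on the log2 scale within IgG (SE 0.12, adjusted p = 0.00062) and by 1.01 within anti-IL-6R (SE 0.12, adjusted p = 0.000119), again in edgeR.

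Eif2d, whose protein joins regions like MCT-1 and DENR in 1 chain, rose as well and varied least between replicates. The libraries gave 42.6 and 38.3 CPM in scramble + IgG, 42.3 and 42.3 CPM in scramble + anti-IL-6R, 64.1 and 65.1 CPM in shMCT-1 + IgG, and 64.2 and 61.5 CPM in shMCT-1 + anti-IL-6R. The silenced libraries all stood above the scramble libraries. The edgeR log2 fold change was 0.67 across both treatments (SE 0.06, adjusted p = 2.31e-06), 0.72 within IgG (SE 0.08, adjusted p = 0.000128) and 0.63 within anti-IL-6R (SE 0.08, adjusted p = 0.000254).

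**Figure D1:**
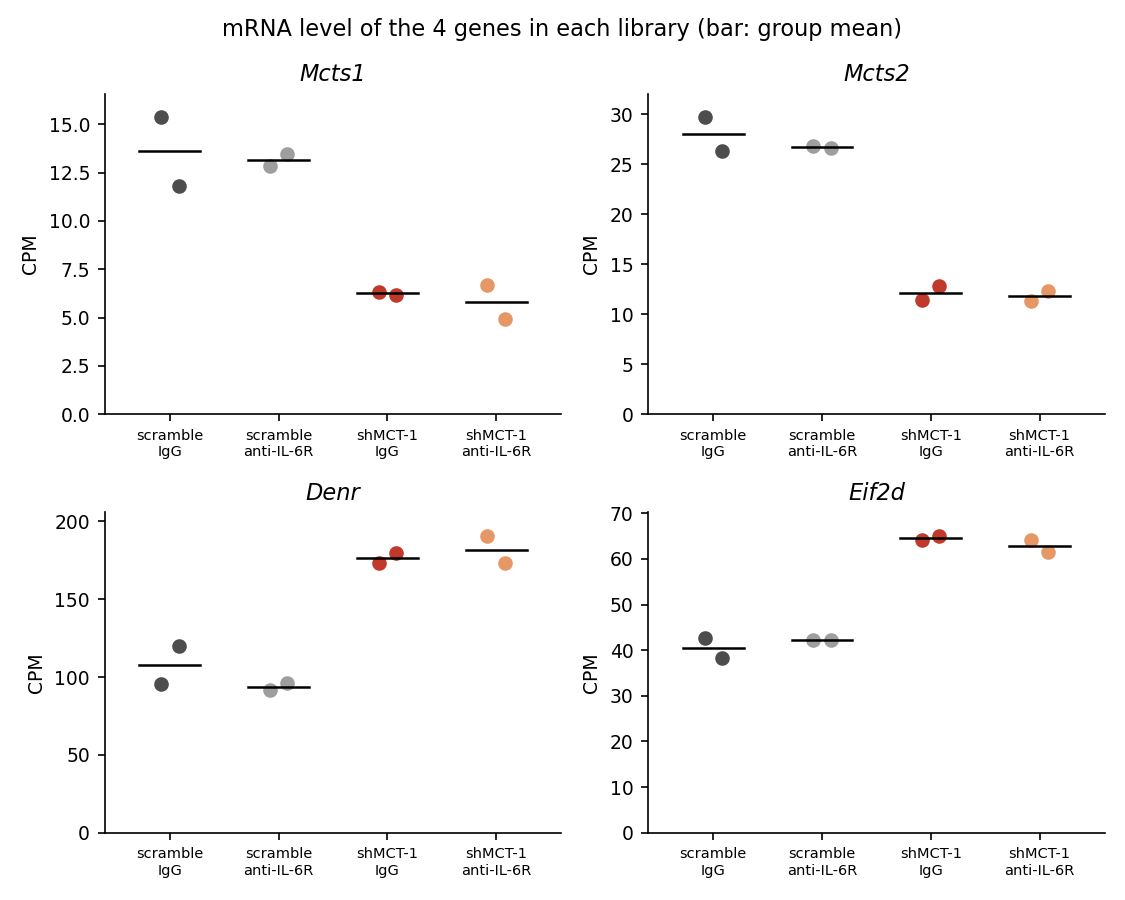
CPM (vertical axis, from 0) of Mcts1, Mcts2, Denr and Eif2d in the 4 groups, with 1 point per library and a bar at the mean of the 2 libraries. Mcts1 and Mcts2 sit lower in the shMCT-1 groups and Denr and Eif2d higher, without overlap, while the IgG and anti-IL-6R groups of the same hairpin lie close together.

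The hairpin groups differed widely across the transcriptome, and the 4 calls have to be read against that background. Across both treatments edgeR called 35% of all tested genes higher and 34% lower in shMCT-1, against 2 higher and 2 lower of the 4 genes. Within IgG the shares were 28.3% higher and 26.2% lower, and within anti-IL-6R 26.9% higher and 27.3% lower, with the same 2 and 2 calls. Separation without overlap in CPM was as frequent, since all 4 shMCT-1 libraries lay above all 4 scramble libraries for 29.9% of the tested genes and below them for 34.2%. An exact two-sided permutation test of 4 against 4 libraries gave p = 0.0286 for each of the 4 genes, the smallest value that its 70 arrangements allow. In size, 13.1% of tested genes had a larger absolute log2 fold change than Mcts1, 12.4% than Mcts2, 18.9% than Denr and 28.3% than Eif2d.

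Blockade of the IL-6 receptor gave no call for any of the 4 genes. None passed the test in either background or across both, in a comparison where edgeR called 0 of 12704 genes (0%). The unadjusted p was also above 0.05 for all 4 genes in each of these comparisons and in the interaction, against 166 genes below it in scramble, 505 in shMCT-1, 355 across both backgrounds and 315 for the interaction. DESeq2 called none of the 4 either, with 0, 11, 1 and 6 genes called in the same order, and edgeR's exact test on only the libraries compared called 10 genes in scramble and 9 in shMCT-1, without any of the 4. For anti-IL-6R against IgG across both backgrounds, the log2 fold change of Mcts1 was -0.08 with a 95% interval from -0.33 to 0.18. That of Mcts2 was -0.06 (-0.21 to 0.10), that of Denr -0.08 (-0.27 to 0.11) and that of Eif2d 0.01 (-0.11 to 0.13).

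The interaction, the difference between the antibody effects in shMCT-1 and in scramble, was likewise not called for any of the 4 genes or any gene tested (0%). It was -0.05 on the log2 scale for Mcts1 (95% interval from -0.60 to 0.50), 0.04 for Mcts2 (-0.30 to 0.38), 0.26 for Denr (-0.11 to 0.63) and -0.09 for Eif2d (-0.35 to 0.18). For Denr the value depended on the scramble + IgG libraries: it was 0.43 without replicate 1 and 0.07 without replicate 2, with adjusted p = 0.292 and 1 in edgeR. The antibody effect on Denr in scramble cells moved with it, from -0.21 over all libraries to -0.38 and -0.02.

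**Figure D2:**
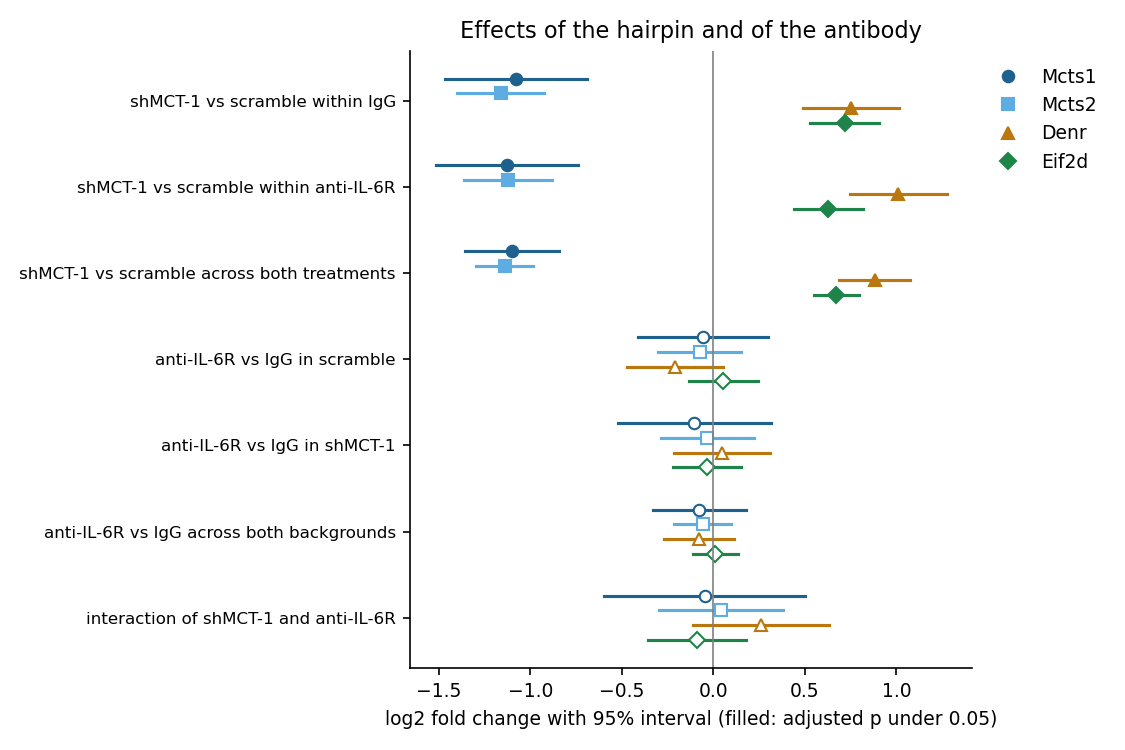
Log2 fold change (horizontal axis) of the 4 genes in 7 comparisons, with 95% intervals from edgeR's quasi-likelihood fit and filled symbols where the adjusted p was under 0.05. The 3 hairpin comparisons hold all filled symbols, with Mcts1 and Mcts2 left of 0 and Denr and Eif2d right of it, and every interval of the antibody and interaction comparisons spans 0.

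Transcript levels can be compared between genes only per length, so CPM were divided by the kilobases (kb) of merged exons, 1.571 for Mcts1, 0.912 for Mcts2, 6.094 for Denr and 7.374 for Eif2d. On this scale Mcts2 led in scramble cells with 30.01 ± 1.73 CPM per kb, followed by Denr with 16.6 ± 2.14, Mcts1 with 8.52 ± 0.949 and Eif2d with 5.61 ± 0.275 (SD, n = 4 each). In shMCT-1 cells Denr led with 29.4 ± 1.36 CPM per kb, followed by Mcts2 with 13.1 ± 0.783, Eif2d with 8.64 ± 0.209 and Mcts1 with 3.84 ± 0.493 (SD, n = 4 each). No neighbours in either order overlapped between libraries. The length chosen matters here, because with the longest coding transcript of each gene Denr stood above Mcts2 in scramble cells too, at 2.57 against 1.77 times the level of Mcts1. Under each length the retrogene copy had more transcript than Mcts1, and in plain counts, too, it held 1.69 to 2.50 times those of Mcts1 in the 8 libraries.

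Ratios between the partners separated the hairpin groups, and the ratio between the copies did not. Mcts2 over Mcts1, in CPM per kb, was 3.54 ± 0.226 in scramble and 3.48 ± 0.617 in shMCT-1 (SD, n = 4 each), with overlapping ranges of 3.33 to 3.83 and 2.91 to 4.31. The sum of Mcts1 and Mcts2, whose products are nearly the same protein, was 38.1 to 45.1 CPM in scramble and 17.2 to 19.02 CPM in shMCT-1. Denr over this sum, in CPM, was 2.12, 3.15, 2.31 and 2.40 in the scramble libraries and 9.76, 9.45, 10.6 and 10.1 in the shMCT-1 libraries. Eif2d over the sum, in CPM, went from a range of 0.945 to 1.07 to one of 3.42 to 3.61. Both ratios in CPM compare libraries and do not show which gene had more transcript. Per kb of merged exons, Denr over the sum was 0.370 to 0.542 in scramble and 1.64 to 1.87 in shMCT-1. Denr over Eif2d, both of which rose, lay at 2.17 to 3.13 in scramble and 2.704 to 2.97 in shMCT-1, and the ranges overlapped. These ratios restate the 4 genes' own changes and were not tested.

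**Figure D3:**
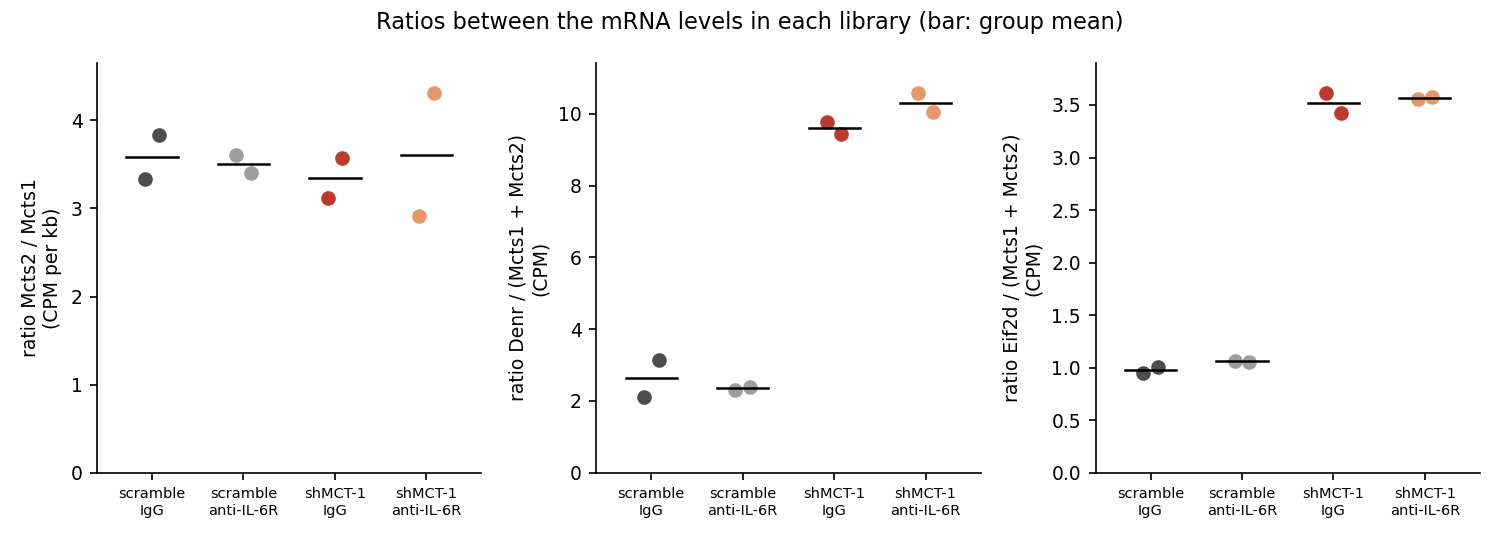
Ratios (vertical axes, from 0) of Mcts2 to Mcts1 in CPM per kb and of Denr and Eif2d to the sum of Mcts1 and Mcts2 in CPM, 1 point per library and a bar at each group mean. The first ratio stays between 2.91 and 4.31 in all libraries, whereas the ratio for Denr goes from at most 3.15 in scramble to at least 9.45 in shMCT-1. The ratios in CPM are not corrected for length.

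The surroundings of the genes differed. Mcts2 (chromosome 2, 152687035 to 152687946, plus strand, 1 exon) lies inside H13, which encodes the signal peptide peptidase, on the same strand and without sharing an exonic base. H13 rose slightly (log2 fold change 0.23, SE 0.06, edgeR adjusted p = 0.00393) while Mcts2 fell by 1.14 on the same scale. The ratio of Mcts2 to its host in CPM went from 0.287 to 0.324 in scramble to 0.101 to 0.136 in shMCT-1. Beyond the host, however, many genes around Mcts2 fell. Of its 20 nearest tested genes, which span 1.34 Mb, edgeR called 16 lower and 3 higher, with a median log2 fold change of -0.51, and Id1, an inhibitor of helix-loop-helix transcription factors and the next protein-coding gene on one side, fell by 0.71 on the log2 scale (SE 0.07, adjusted p = 6.68e-06). The median over the 1000 other tested genes of chromosome 2 was -0.37, against 0.01 over all tested genes. The part of this regional shift, and of the near match to the hairpin, in the change of Mcts2 was not tested.

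Mcts1 (chromosome X, 38600578 to 38613426, plus strand) had no such shift in the median of its nearest genes. Of its 20 nearest tested genes 6 were called higher and 6 lower, with a median of 0.05, and the median of the chromosome was 0.00. Cul4b, which encodes a ubiquitin ligase scaffold, fell by 0.28 on the log2 scale on one side (SE 0.08, edgeR adjusted p = 0.0115), and C1galt1c1, a chaperone of O-glycosylation, rose by 0.32 on the other (SE 0.08, adjusted p = 0.00487). Denr (chromosome 5, 123907175 to 123928835, plus strand) had 9 higher and 8 lower genes among its 20 nearest. Its adjoining protein-coding genes Hcar1, Ccdc62 and Gm43518 did not pass the filter, and Gm43518, on the same strand, shares 51 exonic bases with it. Eif2d (chromosome 1, 131153181 to 131187658, plus strand) had 9 higher and 5 lower, with a chromosome median of 0.21. Rassf5, a RAS effector on the opposite strand that shares 78 exonic bases with Eif2d, had a log2 fold change of 0.09 (SE 0.07, edgeR adjusted p = 0.26). On the outer sides of Eif2d, the kinase gene Dyrk3 rose by 0.39 (SE 0.07, adjusted p = 0.00053) and the kinase gene Ikbke had a value of 0.08 (SE 0.07, adjusted p = 0.361).

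**Figure D4:**
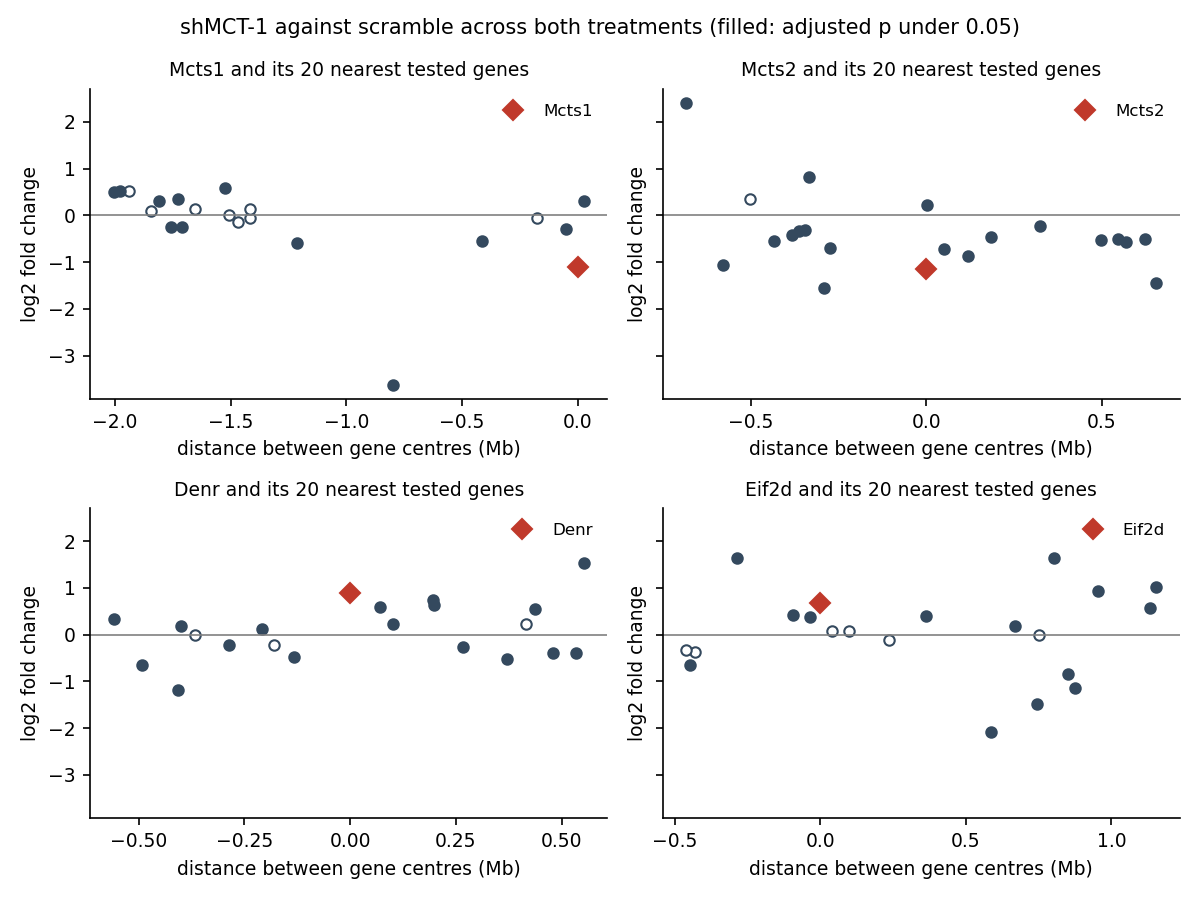
Log2 fold change in shMCT-1 against scramble across both treatments (vertical axis) of each of the 4 genes (diamond) and its 20 nearest tested genes (circles), by the distance between gene centres in Mb (horizontal axis), with filled symbols where edgeR's adjusted p was under 0.05. Most circles around Mcts2 lie below 0, with 16 called lower, while those around the other 3 genes lie both above and below 0.

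Apart from Mcts1 and Mcts2, every expressed gene among the matches kept differed from the hairpin's target at 3 bases. With up to 3 mismatches on either strand the matches kept covered 11 genes, 7 of them on the sense strand. Matches on the autosome left out are missing from these counts, so the list may be incomplete. Of the 4 sense genes with 3 mismatches, only Mycbp, which encodes a MYC-binding protein, passed the filter, with a log2 fold change of 0.06 (SE 0.07, edgeR adjusted p = 0.458), and Fam20a, Msr1 and Gm8328 had at most 3 counts in any library. The 4 antisense matches were all tested. Cenpb, a centromere protein gene, had -0.79 (SE 0.06, edgeR adjusted p = 8.63e-07) and Rnf141 had -0.40 (SE 0.06, adjusted p = 0.000258). Phc2, a Polycomb gene, had 0.30 (SE 0.07, adjusted p = 0.00305) and Xpnpep2 had 0.07 (SE 0.18, adjusted p = 0.768). The part of the near matches in these values was not tested. Slc16a1, whose product is a monocarboxylate transporter that is also called MCT1 and is unrelated, went from 237.3 to 247.2 CPM in scramble to 287.2 to 312.8 CPM after silencing, with a log2 fold change of 0.33 (SE 0.05, adjusted p = 0.000134).

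The factors that act before and after the dimer in the ribosome cycle changed in both directions. Of the 10 tested genes for termination, subunit splitting and recycling, 4 rose and 3 fell across both treatments, with a median log2 fold change of 0.06 and against the 35% and 34% called among all genes. Gspt2 was listed at 0 and not tested. Eif1, which encodes a start codon selection factor, and its paralog Eif1b rose by 0.66 (SE 0.10, edgeR adjusted p = 0.000119) and 0.89 (SE 0.07, adjusted p = 1.22e-06) on the log2 scale. Eif3j1, whose product loosens mRNA and eIF1A from the small subunit, fell by 0.85 (SE 0.08, adjusted p = 5.56e-06), from 144.5 to 180.5 CPM in scramble to 75.2 to 89.2 CPM in shMCT-1. Abce1, the ATPase that splits ribosomes after termination, fell by 0.31 (SE 0.06, adjusted p = 0.00113). Within IgG alone 4 of these genes rose and 3 fell (28.3% and 26.2% of all genes), and within anti-IL-6R 3 rose and 2 fell (26.9% and 27.3% of all genes).

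Among the 13 tested genes that bring the initiator tRNA to the ribosome, 6 rose and 3 fell across both treatments, where 35% of all tested genes rose and 34% fell. Their median was 0.11, and Eif2s3y was listed at 0. The largest decreases were those of Eif5, which encodes the activator of GTP hydrolysis on eIF2, by 0.67 (SE 0.05, edgeR adjusted p = 1.77e-06), and of Eif2s1, the eIF2 alpha subunit, by 0.41 (SE 0.08, adjusted p = 0.000657). Bzw1, whose product mimics part of eIF5, rose by 0.38 (SE 0.05, adjusted p = 9.12e-05) and Eif5b, the subunit joining factor, by 0.38 (SE 0.09, adjusted p = 0.00279). Within IgG 2 of the 13 rose and 3 fell (28.3% and 26.2% of all genes), and within anti-IL-6R 5 rose and 3 fell (26.9% and 27.3% of all genes).

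The 18 genes for scanning and reinitiation cofactors, mostly subunits of eIF3, were all tested. Of these 10 rose and 5 fell across both treatments, beside 35% and 34% of all tested genes, and their median was 0.30 against 0.01 for all genes. Eif3i and Eif3m, both subunits of eIF3, rose by 0.62 (SE 0.10, edgeR adjusted p = 0.000206) and 0.47 (SE 0.07, adjusted p = 9.21e-05). Prrc2b and Prrc2c, which encode related proteins that assist scanning, fell by 1.19 (SE 0.07, adjusted p = 1.5e-07) and 1.01 (SE 0.16, adjusted p = 0.000221), and Prrc2b went from 577.0 to 627.0 CPM in scramble to 231.1 to 282.0 CPM in shMCT-1. Within IgG 10 rose and 5 fell, where 28.3% and 26.2% of all genes did, and within anti-IL-6R 10 rose and 4 fell, where 26.9% and 27.3% did.

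The last list held 6 genes whose translation has been reported to depend on MCT-1 and DENR, of which only the mRNA was measured here. Across both treatments 3 rose and 2 fell in mRNA, with a median of 0.04, while 35% of all tested genes rose and 34% fell. Only 1 rose and 2 fell within IgG, and 1 rose and 2 fell within anti-IL-6R, where the shares over all genes were 28.3% and 26.2%, and 26.9% and 27.3%. Clock, the circadian transcription factor, fell by 1.30 (SE 0.09, edgeR adjusted p = 8.9e-07), from 92.0 to 99.4 CPM in scramble to 30.1 to 43.6 CPM in shMCT-1. Etaa1, an activator of the ATR kinase, fell by 0.66 (SE 0.09, adjusted p = 5.59e-05), and Map2k5, a kinase of the MAPK cascade, rose by 0.36 (SE 0.07, adjusted p = 0.000675). Jak2, the kinase that acts below cytokine receptors, had a log2 fold change of -0.09 (SE 0.11, adjusted p = 0.453).

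Atf4 and Klhdc8a of the same list were at the edge of the test. Atf4, the transcription factor of the integrated stress response, was at 464.0 to 472.5 CPM in scramble and 464.5 to 532.8 CPM in shMCT-1, and its log2 fold change of 0.17 (SE 0.06, edgeR adjusted p = 0.0223) was not called in 6 of 14 alternatives, with adjusted p up to 0.0711 when 1 library was left out. Klhdc8a, a kelch domain gene, was at 1.71 to 2.20 CPM in scramble and 1.88 to 3.25 CPM in shMCT-1, with a value of 0.58 (SE 0.22, adjusted p = 0.0367), and was also lost in 6 of 14 alternatives, up to an adjusted p of 0.135 without replicate 1 of shMCT-1 + IgG. None of the genes on the 4 lists was called for the antibody or the interaction in edgeR, and 1 gene of the tRNA delivery list had an unadjusted p under 0.05 in shMCT-1 and 1 across both backgrounds.

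**Figure D5:**
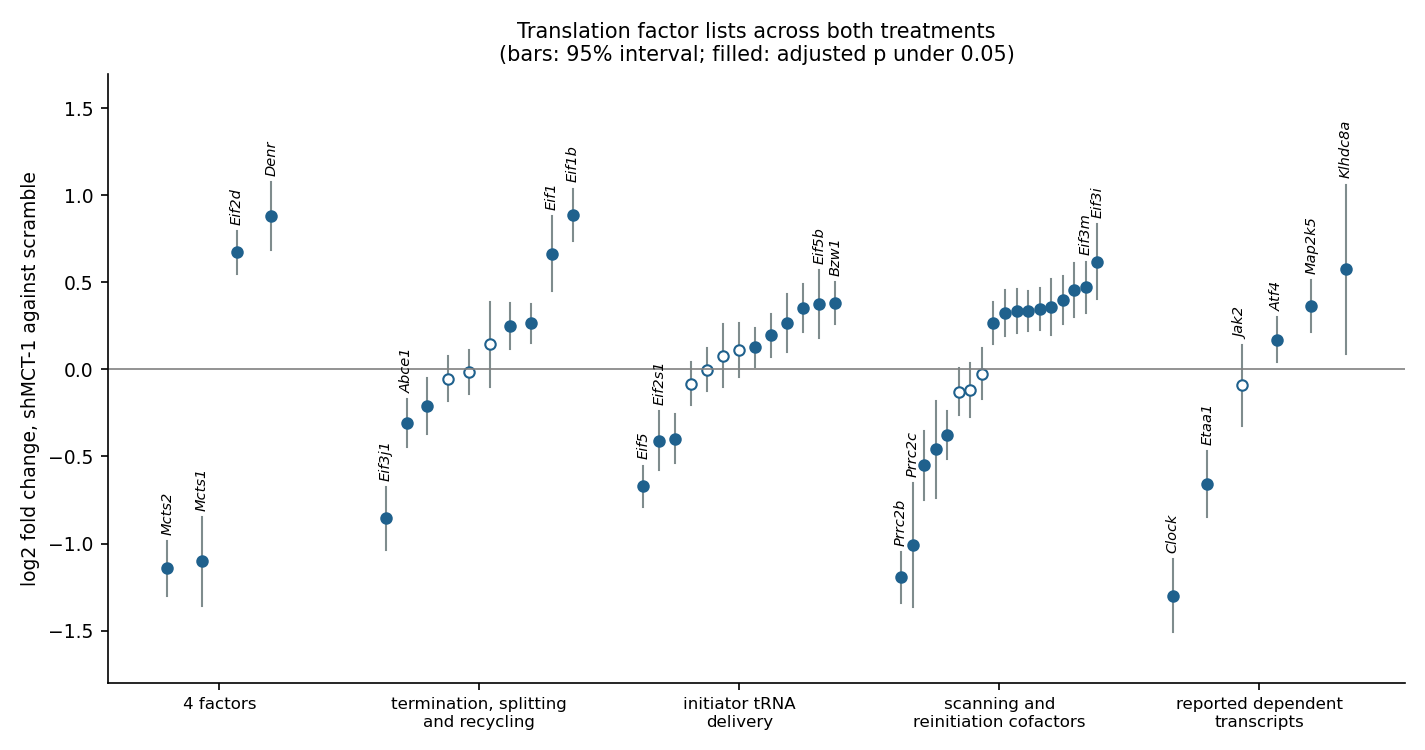
Log2 fold change in shMCT-1 against scramble across both treatments (vertical axis) of the 4 genes and of each tested gene on the 4 lists, ordered within a list, with 95% intervals and filled circles where edgeR's adjusted p was under 0.05. Each list has filled circles on both sides of 0, and the names mark its highest and lowest genes.

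Genes with the most similar course over the 8 libraries were found by Pearson's r of log2 CPM, as a description. Those closest to Mcts1 were Recql4, a DNA helicase gene, Magi2, a scaffold gene, and Mgst1, a glutathione transferase gene (r = 0.992, 0.991 and 0.991). Closest to Mcts2 were Pdk1, a pyruvate dehydrogenase kinase gene, Has3, a hyaluronan synthase gene, and Arrdc3, an arrestin family gene (each r = 0.997). Closest to Denr were Ube2e1, a ubiquitin-conjugating enzyme gene, Mdfic and Cct5, a chaperonin subunit gene (r = 0.997, 0.997 and 0.994), and to Eif2d Limk2, a kinase gene, Cd63, a tetraspanin gene, and Elmo3 (r = 0.9995, 0.9992 and 0.9991). The 8 libraries fell into a scramble and an shMCT-1 set, and between 1408 and 2929 of 12703 genes reached r above 0.9 with 1 of the 4 genes.

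Library totals were 24100084 to 33063570 counts in scramble and 19839299 to 23448587 in shMCT-1. Of 5 markers of mammary epithelium all were tested, and their summed level was 2033 to 2174 CPM in scramble and 2577 to 2782 CPM in shMCT-1. The markers did not move alike. From scramble to shMCT-1, mean CPM went from 1085 to 1337 for Krt8, 667 to 909 for Krt18 and 61.8 to 93.2 for Krt14. Epcam went from 4.37 to 51.3 CPM, and Cdh1 from 299 ± 11.1 to 277 ± 27.0 CPM (SD, n = 4 each). Of 8 markers of other cell types 3 were tested, and all 8 together summed to 15.3 to 17.3 CPM in scramble and 13.1 to 17.6 CPM in shMCT-1. Most of this sum was the fibroblast marker Pdgfra, with means of 15.6 and 13.5 CPM. The other tested ones went up from low means, the fibroblast marker Col1a1 from 0.421 to 1.31 CPM and the endothelial marker Cdh5 from 0.0311 to 0.921 CPM. Below the filter, the endothelial marker Pecam1 went from 0.149 to 0.303 CPM and the fat marker Adipoq from 0.0104 to 0 CPM. The immune markers Adgre1 and Cd3e were at 0 in all libraries, and the immune marker Ptprc reached at most 0.137 CPM. Of the receptors that define the triple-negative class Pgr was at 0, and Esr1 and Erbb2 passed the filter, with means of 3.09 and 57.0 CPM in scramble. The part of depth and of the epithelial markers in the 4 genes' changes was not tested.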

How the data were processed

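After trimming with cutadapt 1.18 and alignment to mm10 with STAR 2.7.0d, the authors deposited expected counts per gene from RSEM, not normalized for depth or length, per the labels and the study's methods. These values were rounded to whole counts, and identifiers were named through GENCODE release M21, which held 54495 of 54532 without their version. Genes above 1 CPM in at least 2 libraries were fitted with TMM factors and edgeR 4.0.16 under R 4.3.3, as 4 group means or as an additive model of hairpin and antibody. Benjamini-Hochberg adjustment covered all 12704 tested genes, and genes with adjusted p under 0.05 were called. Standard errors came from the log2 fold change and its F statistic. CPM in the text are scaled to library totals of 19839299 to 33063570 counts. Sites of the hairpin were searched in transcripts only, not in introns. Matches on 1 autosome that carries none of the 4 genes were dropped, without a recorded reason, while those on other such autosomes were kept.

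The 2 libraries of a group are described as independent biological replicates by the submitters. They differed by more than sampling noise in every group (chi-square 4.36 to 27.8 times its degrees of freedom). The 4 genes, the lists and the rule for named genes were chosen with earlier results of these data known. That rule names the 4 genes, all reported dependent transcripts, the 2 highest and 2 lowest genes of each other list, genomic neighbours, the 3 most correlated genes and Slc16a1. Alternatives were RLE factors, 3 other filters, DESeq2 1.42.0, edgeR's exact test, fits of only the 4 libraries compared, a replicate block, leaving out each library, and other lengths and windows. The length of the longest coding transcript was added after seeing the data.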

Additional observations from a re-analysis of the deposited data

How the results depend on the processing

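All 184 recomputed values of the 3 hairpin comparisons for Mcts1, Mcts2, Denr and Eif2d kept their direction and their call, over RLE factors, no filter, filterByExpr, a filter of above 1 CPM in 7 or more libraries, DESeq2, the replicate block, the fits of only the 4 libraries compared and leaving out each library. Leaving out 1 library gave log2 fold changes across both treatments from -1.19 to -1.01 for Mcts1, -1.17 to -1.10 for Mcts2, 0.83 to 0.98 for Denr and 0.64 to 0.70 for Eif2d. No antibody or interaction value was called under any alternative, and only leaving out a library turned directions. For anti-IL-6R against IgG in scramble these runs went from -0.21 to 0.13 for Mcts1 and from -0.00 to 0.12 for Eif2d. In shMCT-1 they went from -0.34 to 0.12 for Mcts1, -0.11 to 0.05 for Mcts2, -0.02 to 0.13 for Denr and -0.06 to 0.01 for Eif2d. Across both backgrounds they went from -0.16 to 0.00 for Mcts1, -0.14 to 0.02 for Denr and -0.02 to 0.03 for Eif2d. For the interaction they went from -0.27 to 0.19 for Mcts1 and from -0.04 to 0.13 for Mcts2. Of the reported dependent transcripts 3 to 5 were called when a library was left out, against 5 over all libraries. The cause of these moves was not tested beyond the smaller number of libraries.

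The differences between replicates 1 and 2 correlated at -0.0797 to 0.106 over the 6 pairs of groups, so no strong shared replicate effect was seen. Such correlations cannot show whether the libraries were prepared as pairs. With the replicate block Mcts1 had -1.10, Mcts2 -1.14, Denr 0.88 and Eif2d 0.67 across both treatments. With the longest transcript as length, Mcts2 and Denr stood at 1.77 and 1.51 times Mcts1 in scramble, and with the longest coding transcript at 1.77 and 2.57 times, against 3.54 and 1.98 with merged exons. Allowing 3 mismatches raised the genes with a hairpin site from 1 to 11 among the matches kept. With windows of 50 bases, 0.7% of Mcts2, 0.13% of Denr and 0.03% of Eif2d windows occurred in another gene, against 0% at 100 bases. With 2 libraries a group, antibody effects smaller than the printed intervals could not be resolved.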
